A study of Mus musculus with 12 samples.

Results

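The D and E cyclins and their kinases drive the cell cycle through G1 and into S phase. The set described here holds 8 genes: the D cyclins Ccnd1, Ccnd2 and Ccnd3 with their kinases Cdk4 and Cdk6, and the E cyclins Ccne1 and Ccne2 with their kinase Cdk2. They are 8 of the 18193 genes that the arrays could name by a probe set of their own, and 24 probe sets are annotated to 1 of them alone. The brightest probe set of a gene, by its average signal on all arrays, represents it, and the other 16 serve as a check.

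D cyclins bind Cdk4 or Cdk6, and the resulting kinases begin to phosphorylate the retinoblastoma protein, which holds E2F transcription factors inactive in G1. Cyclin E with Cdk2 continues this phosphorylation, and freed E2F factors switch on genes for DNA replication. In the fetal mouse testis these genes act in several cell types at once: germ cells leave the cycle and stay arrested in G1 or G0 over the stages sampled here, while Sertoli cells and other somatic cells go on dividing.

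The tissue was the genital ridge or testis of male embryos of strain M19 (129.MOLF-Chr 19), taken at embryonic day E13.5, at E15.5 and at E17.5, and of strain 129 (129/Sv) at the same stages. M19 is a chromosome substitution strain with chromosome 19 of MOLF on the 129 background, known for a high rate of testicular germ cell tumours in males, and 129 is its background strain. No embryo was treated. Each of the 6 groups had 2 arrays, and the protocol describes a pool of 40 testis pairs for 2 arrays, so both arrays of a group may share a pool and the p-values may measure technical spread alone. Whole gonads were used, so that fewer cells of a type and less RNA per cell cannot be told apart. RefSeq places the 8 genes on chromosomes 4, 5, 6, 7, 10 and 17, and none on chromosome 19, the substituted one.

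The values are the deposited signals, taken as log2, with array medians between 8.1 and 8.27 and 8 to 18 probe sets per array at 0. They were compared with limma over all 45037 probe sets, and called means a p under 0.05 after Benjamini-Hochberg adjustment. The SD of the difference between both arrays of a group was largest in 129 at E13.5, at 0.38, against 0.161 to 0.292 in the other groups. Some skin, skeletal muscle and cartilage markers had a higher mean in 129 at E15.5 than in every other group. The keratin Krt1 averaged 11.34 there and 7.69 to 8.01 in the other groups. Not all markers of these tissues were called between the strains at that stage, and Myod1 and Matn1 were among those not called. The means of the germ, Sertoli and Leydig cell marker lists were above the array medians in every group. They were 10.09 to 11.54, 10.84 to 11.58 and 10.86 to 13.23. Some single markers lay below the medians, such as Tdrd1 at 7.18 and Fshr at 7.60 in M19 at E13.5.

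At E17.5 against E13.5, called the span here and averaged over both strains, 4 of the 8 genes were called: Ccnd1, Ccne1 and Cdk4 fell and Ccnd2 rose. Among all 18193 genes the same test called 27.3%, with 10.9% lower and 16.3% higher at E17.5. The median difference of the 8 genes was -0.18 and that of all genes 0.06. Ccnd3, Ccne2, Cdk2 and Cdk6 were not called by their representatives. The plot of signal by array shows all 8 genes on the same scale length.

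**Figure D1:**
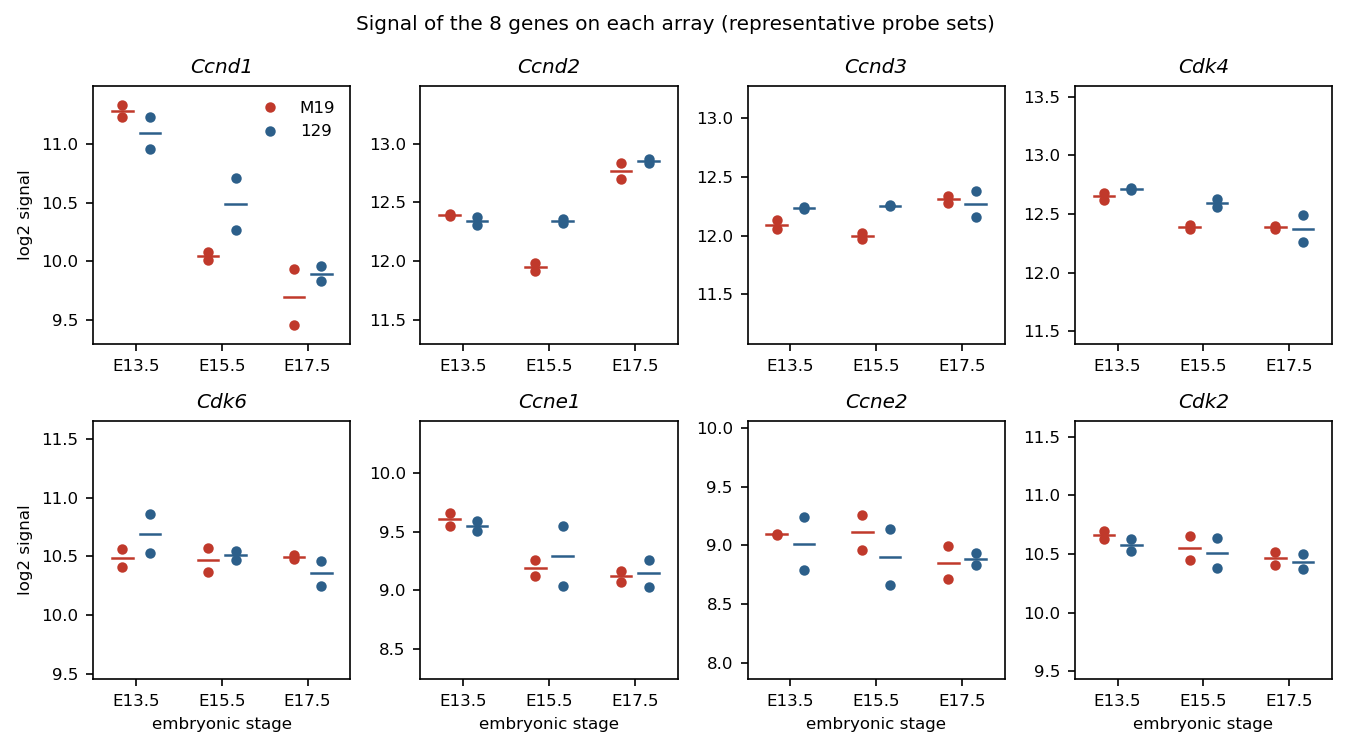
Log2 signal (vertical axis, each panel spanning the same length) of the 8 genes at each embryonic stage, with M19 in red left of 129 in blue; points are single arrays and bars are means of 2 arrays. Ccnd1 moves most, by 1.58 between its highest and lowest group mean, and Ccnd2 is lowest in M19 at E15.5, at 11.95.

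Ccnd1, which encodes cyclin D1, the D cyclin best known as a target of growth factor signals, fell most. In M19 its probe set 1417420_at read 11.23 and 11.33 at E13.5, 10.08 and 10.01 at E15.5, and 9.46 and 9.94 at E17.5. In 129 it read 10.96 and 11.23 at E13.5, 10.27 and 10.71 at E15.5, and 9.96 and 9.83 at E17.5. All 4 arrays of E13.5 lay above all 4 of E15.5, which lay above all 4 of E17.5.

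The mean difference of Ccnd1 between E17.5 and E13.5 was -1.39 ± 0.13 (SE, 4 arrays per stage; limma adjusted p = 3e-05), which is 2.62-fold lower at E17.5. The early step, E15.5 minus E13.5, was -0.92 ± 0.13 (adjusted p = 0.00096), and Ccnd1 was the 1 gene of 8 called there, against 14.3% of all genes called and 4.52% called lower. The late step, E17.5 minus E15.5, was -0.47 ± 0.13 and just missed the threshold (adjusted p = 0.058). It passed when 1 of these arrays was left out: replicate 1 or replicate 2 of 129 at E13.5 (adjusted p = 0.041 each), replicate 1 of 129 at E15.5 (0.033) or replicate 2 of M19 at E17.5 (0.034). It also passed with the replicate block (0.039) and in 6 of the other 7 alternatives, and missed it on the compared groups alone (0.07). Over all 12 arrays left out in turn its adjusted p ran from 0.033 to 0.2. The late step does not use the arrays of E13.5, so leaving 1 of them out changed only the estimate of the spread. Of the 3 probe sets, 2 were called lower in that step, against 3.49% of all probe sets.

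The 3 probe sets of Ccnd1 gave close values, with span differences of -1.39, -1.36 and -1.39, each called lower, as were 10.3% of all probe sets. Over the 12 arrays the dimmer probe sets had an r of 0.96 and 0.93 with the representative. Within M19 the early step was -1.23 ± 0.19 (adjusted p = 0.0025), against -0.60 ± 0.19 within 129 (adjusted p = 0.113). The other 2 probe sets were called lower in this step of 129, at -0.53 ± 0.12 (adjusted p = 0.031) and -0.93 ± 0.14 (adjusted p = 0.0026), where 4.6% of all probe sets were called. The value of the representative in 129 was -0.38 when replicate 1 of 129 at E15.5 was left out and -0.83 when replicate 2 was, with no call either way. The difference of the representative's steps, M19 minus 129, was -0.63 ± 0.26 and did not pass its own test (adjusted p = 1). For the other 2 probe sets it was -0.69 ± 0.17 (adjusted p = 0.433) and -0.15 ± 0.20, neither called. Their early steps within M19 were -1.22 ± 0.12 and -1.09 ± 0.14, both called lower, as were 1.59% of all probe sets. Without both 129 arrays of E15.5, the representative's early step within M19 had an adjusted p of 0.0017 and its span one of 2.3e-05. Neither difference uses these arrays, so only the estimate of the spread could change, and their signal is not checked by it.

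Ordered by mean, the Ccnd1 levels were 11.28 in M19 at E13.5, 11.09 in 129 at E13.5, 10.49 in 129 at E15.5, 10.05 in M19 at E15.5, 9.89 in 129 at E17.5 and 9.70 in M19 at E17.5. The SD within groups ran from 0.05 to 0.34. Of these neighbours, the 3 pairs of equal stage and the early step within 129 did not pass the test, and M19 at E15.5 against 129 at E17.5 was not tested.

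Ccnd2, which encodes cyclin D2, a D cyclin required for full proliferation of gonadal somatic cells in the mouse, moved differently. In M19 its probe set 1434745_at read 12.38 and 12.40 at E13.5, 11.98 and 11.91 at E15.5, and 12.70 and 12.83 at E17.5. In 129 it read 12.37 and 12.31 at E13.5, 12.36 and 12.32 at E15.5, and 12.83 and 12.87 at E17.5. The 4 arrays of E17.5 were highest, the M19 arrays of E15.5 were lowest, and the 129 arrays of E13.5 and E15.5 overlapped.

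The late step of Ccnd2 was 0.67 ± 0.07 over both strains (SE, 4 arrays per stage; limma adjusted p = 0.00049), or 1.59-fold higher at E17.5. It was the 1 gene of 8 called in that step, against 9.04% of all genes called and 4.46% called higher. The span was 0.44 ± 0.07 (adjusted p = 0.0016), and the early step was -0.22 ± 0.07 (adjusted p = 0.088). Of the 7 probe sets, 6 were called higher in the late step and 6 over the span, with late differences of 0.59 to 1.11 over all 7. Among all probe sets 3.2% were called higher in the late step and 12.2% over the span. The representative had the smallest late difference but for the probe set 1416124_at, at 0.59 ± 0.20, which was not called.

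By strain, the late step of Ccnd2 was 0.82 ± 0.10 in M19 (adjusted p = 0.0027), against 0.51 ± 0.10 in 129 (adjusted p = 0.035). It was the 1 gene of 8 called in each strain, against 3.23% of all genes called and 1.45% called higher in M19, and 2.42% and 1.18% in 129. The call in 129 was kept without replicate 1 or replicate 2 of 129 at E13.5 and lost without any other array, at adjusted p values of 0.053 without either M19 array of E17.5, 0.066 without either M19 array of E15.5 and 0.093 without either M19 array of E13.5. The values were 0.121 and 0.167 without replicate 1 and replicate 2 of 129 at E15.5 and 0.161 and 0.217 without those of 129 at E17.5. The replicate block gave 0.053, median centring 0.051 and a fit on both compared groups alone 0.172. The late step in 129 uses no M19 array and none of 129 at E13.5, so without these only the estimate of the spread changed. With 1 array left out the difference stayed between 0.49 and 0.53.

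The early step of Ccnd2 was -0.44 ± 0.10 in M19 (adjusted p = 0.032), against 0.00 ± 0.10 in 129 (adjusted p = 0.999). With Ccnd1 it made 2 of 8 genes called in the early step of M19, against 7.4% of all genes called and 1.66% called lower, while 0 of 8 were called in that step of 129, against 6.3%, with 1 of 8 at an unadjusted p under 0.05. The difference of the early steps, M19 minus 129, was -0.44 ± 0.15 (95% interval -0.77 to -0.12) and did not pass the test over all probe sets (adjusted p = 0.965). In M19 all 7 probe sets of Ccnd2 had a negative early step and 3 were called, against 1.59% of all probe sets called lower. In 129 all 7 were negative too and limma called 0 of them.

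The M19 early step of Ccnd2 was lost without either array of M19 at E13.5 (adjusted p = 0.218 without replicate 1 and 0.25 without replicate 2) or at E15.5 (0.136 and 0.201). It was also lost without either array of 129 at E17.5 and in the second brightest probe set (adjusted p = 0.055). The step does not use 129 at E17.5, so leaving either array out changed only the estimate of the spread.

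**Figure D2:**
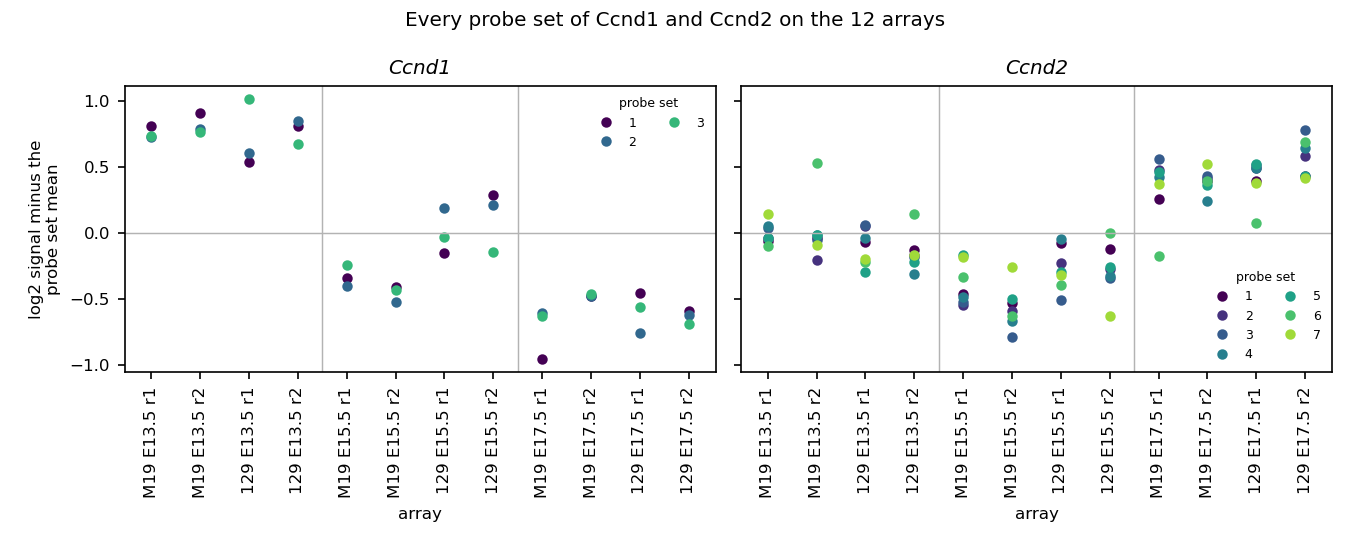
Log2 signal minus the mean of each probe set over the 12 arrays (vertical axis) for the 3 probe sets of Ccnd1 and the 7 of Ccnd2 (colours, numbered from the brightest), with arrays ordered by stage and M19 before 129 within a stage. The Ccnd1 probe sets have lower group means at each later stage in both strains. In M19 the group means of the 7 Ccnd2 probe sets are lowest at E15.5, while in 129 the brightest averages 12.34 at both E13.5 and E15.5; all but probe set 6 in M19 have their highest mean at E17.5.

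Ccnd3, which encodes cyclin D3, was not called in any comparison. In M19 it read 12.13 and 12.06 at E13.5, 11.97 and 12.02 at E15.5, and 12.34 and 12.28 at E17.5. In 129 it read 12.23 and 12.24, 12.26 and 12.25, and 12.16 and 12.38 at the same stages. The M19 arrays lay below the 129 arrays at E13.5 and E15.5 and overlapped them at E17.5. The span was 0.12 ± 0.08 (95% interval -0.05 to 0.30, adjusted p = 0.289). The other 2 probe sets of Ccnd3 had an r of -0.33 and 0.24 with the representative over the 12 arrays.

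Cdk4, the kinase partner of all 3 D cyclins, fell slightly. In M19 it read 12.68 and 12.62 at E13.5, 12.37 and 12.41 at E15.5, and 12.40 and 12.37 at E17.5. In 129 it read 12.70 and 12.72, 12.56 and 12.63, and 12.26 and 12.49. Each E13.5 array lay above every E17.5 array, and in 129 the E15.5 arrays lay between those of the other stages.

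The span of Cdk4 was -0.30 ± 0.08 (SE, 4 arrays per stage; limma adjusted p = 0.02), 1.23-fold lower at E17.5, and its other 2 probe sets gave -0.36 each, both called. Neither step was called by itself, at -0.19 ± 0.08 for the early and -0.11 ± 0.08 for the late step. The span call was lost without replicate 1 of M19 at E13.5 (adjusted p = 0.086), its replicate 2 (0.063), replicate 1 of 129 at E17.5 (0.076), and replicate 1 or replicate 2 of M19 at E17.5 (0.052 and 0.057).

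Cdk6, the other kinase of the D cyclins, gave results that depend on the probe set. Its representative 1455287_at read 10.56 and 10.41 at E13.5, 10.37 and 10.57 at E15.5, and 10.51 and 10.48 at E17.5 in M19, and 10.86 and 10.53, 10.47 and 10.55, and 10.46 and 10.25 in 129. These stages overlap in both strains but for E17.5 in 129, which lay below the other 129 arrays, and the span of -0.17 ± 0.10 was not called (adjusted p = 0.269).

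The second probe set of Cdk6, 1435338_at, is annotated through the same sequence record. It read 9.86 and 9.99, 9.54 and 9.31, and 8.74 and 8.99 at E13.5, E15.5 and E17.5 in M19, and 9.67 and 9.96, 9.30 and 9.63, and 9.10 and 8.99 in 129. Its span was -0.91 ± 0.11 (limma adjusted p = 0.00021), and both of its steps were called lower, at -0.42 ± 0.11 and -0.49 ± 0.11. In the early step 4.05% of all probe sets were called lower. The dimmest probe set, 1460291_at, with a mean of 7.38 below the median of 8.17 of all probe sets, rose in the late step by 0.37 ± 0.09 (adjusted p = 0.039). No single direction can be given for Cdk6 on these arrays.

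Ccne1, which encodes cyclin E1, fell. Its representative 1441910_x_at read 9.66 and 9.55 at E13.5, 9.26 and 9.12 at E15.5, and 9.07 and 9.17 at E17.5 in M19, and 9.59 and 9.51, 9.04 and 9.55, and 9.26 and 9.03 in 129. The E13.5 arrays were the highest in M19, and replicate 2 of 129 at E15.5 lay among the E13.5 values of its strain. The span was -0.45 ± 0.11 (SE, 4 arrays per stage; limma adjusted p = 0.017), 1.36-fold lower at E17.5.

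The span call of Ccne1 was lost without replicate 1 of M19 at E13.5 (adjusted p = 0.069), replicate 2 of 129 at E17.5 (0.07) or replicate 1 of M19 at E17.5 (0.061). The suffix x marks probe sets that may bind more than 1 transcript, and the representatives of Ccne1 and Cdk4 both carry it. The other probe set of Ccne1, 1416492_at, does not, and it gave -0.66 ± 0.08 over the span (adjusted p = 0.00015) and -0.41 ± 0.08 in the early step (adjusted p = 0.0056). The early step of the representative was -0.34 ± 0.11 (adjusted p = 0.092). With 1 array left out it was called only without replicate 2 of 129 at E15.5 (-0.47, adjusted p = 0.015), and without replicate 1 of that group it was -0.21 (adjusted p = 0.287).

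Ccne2, which encodes cyclin E2, has 1 probe set. It read 9.09 and 9.10, 9.26 and 8.96, and 8.71 and 8.99 at the 3 stages in M19, and 8.79 and 9.24, 8.66 and 9.14, and 8.93 and 8.83 in 129. In M19 both E17.5 arrays lay below both E13.5 arrays, while in 129 the values of E17.5 lay within the range of the other stages. The span of -0.19 ± 0.14 was not called (95% interval -0.50 to 0.11, adjusted p = 0.36).

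Cdk2, the kinase of the E cyclins, was not called either. It read 10.63 and 10.70, 10.65 and 10.45, and 10.52 and 10.41 at the 3 stages in M19, and 10.53 and 10.63, 10.38 and 10.64, and 10.37 and 10.50 in 129. The E13.5 arrays lay above the E17.5 arrays, and those of E15.5 overlapped both. The span was -0.18 ± 0.09 (95% interval -0.38 to 0.02, adjusted p = 0.195). Its second probe set had a mean of 4.22, far below the median of all probe sets.

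**Figure D3:**
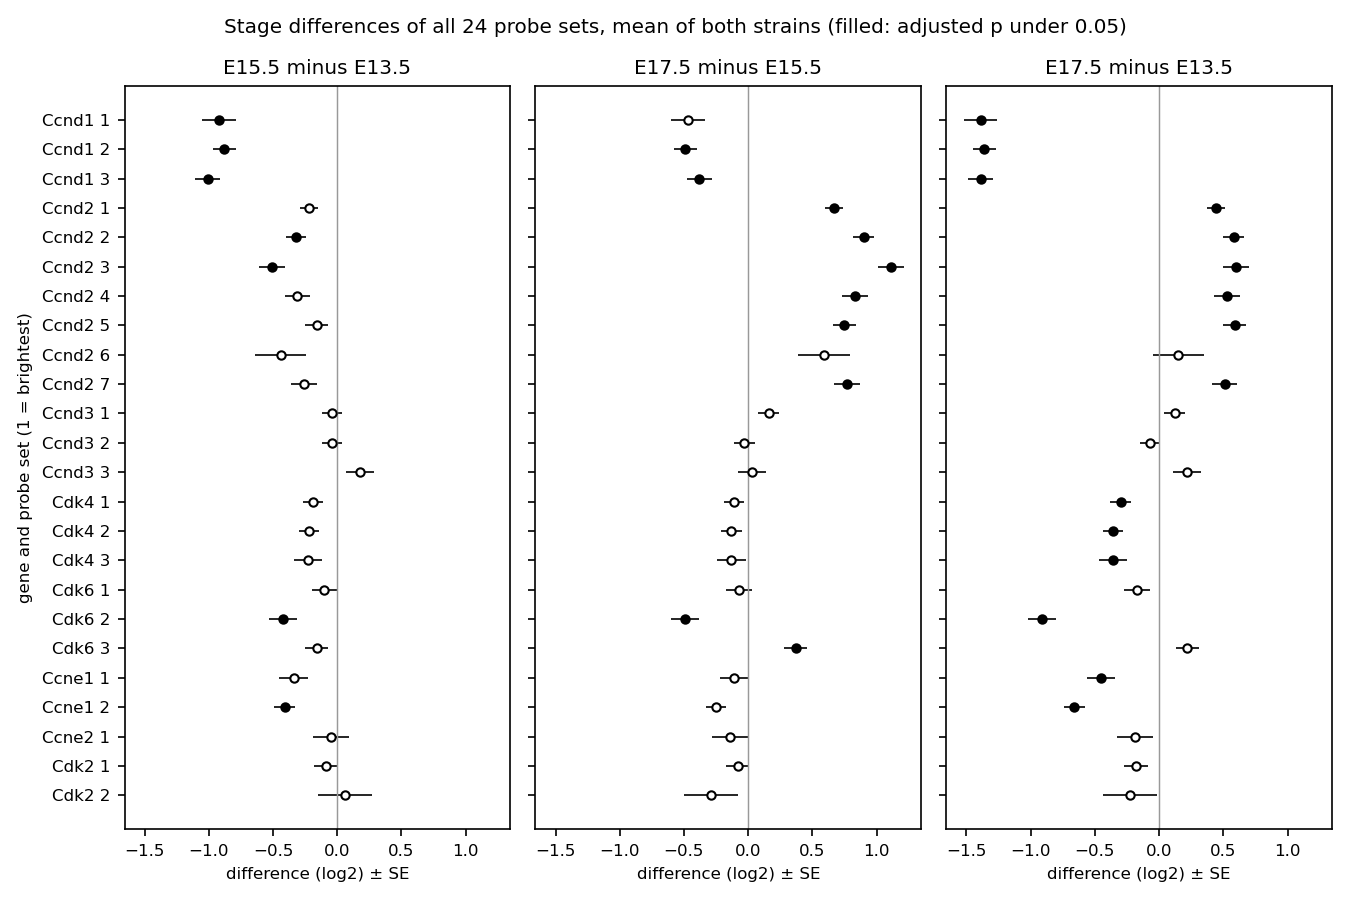
Stage differences on the log2 scale with SE (horizontal axis) for all 24 probe sets (vertical axis, numbered from the brightest within each gene), as means of both strains; filled points have an adjusted p under 0.05. Over the span all probe sets of Ccnd1, Cdk4 and Ccne1 are lower at E17.5 and 6 of 7 of Ccnd2 are called higher, while the 3 of Cdk6 differ in direction.

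Ccne1 and Cdk4 fell over the same span, with an r of 0.72 between their representatives over the 12 arrays, and the promoter sequences of both are shown beside that of Cdk2, which was not called. The windows cover 250 bases before and 50 after the gene start in RefSeq, build GRCm38.p6, and a window was at hand for 5 of the 8 genes. Capitals mark matches on either strand to the GC box GGGCGG, the E box CACGTG and the E2F motif written as TTTCCCGC, TTTGGCGC, TTTCGCGC or TTTGCCGC, and GC boxes can overlap.
Ccne1, chr7:38107441-38107740, minus strand: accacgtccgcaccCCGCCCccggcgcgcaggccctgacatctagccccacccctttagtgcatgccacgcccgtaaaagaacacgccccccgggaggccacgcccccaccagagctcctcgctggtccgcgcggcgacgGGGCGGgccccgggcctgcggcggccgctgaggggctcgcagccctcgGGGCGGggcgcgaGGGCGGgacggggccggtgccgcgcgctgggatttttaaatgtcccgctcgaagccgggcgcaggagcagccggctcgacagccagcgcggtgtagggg
Cdk4, chr10:127063285-127063584, plus strand: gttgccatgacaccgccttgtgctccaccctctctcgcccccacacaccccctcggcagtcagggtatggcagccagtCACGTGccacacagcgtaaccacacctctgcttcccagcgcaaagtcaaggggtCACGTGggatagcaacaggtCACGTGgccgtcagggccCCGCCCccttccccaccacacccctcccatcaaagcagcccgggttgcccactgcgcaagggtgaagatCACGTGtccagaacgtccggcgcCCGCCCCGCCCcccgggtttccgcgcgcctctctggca
Cdk2, chr10:128705002-128705301, minus strand: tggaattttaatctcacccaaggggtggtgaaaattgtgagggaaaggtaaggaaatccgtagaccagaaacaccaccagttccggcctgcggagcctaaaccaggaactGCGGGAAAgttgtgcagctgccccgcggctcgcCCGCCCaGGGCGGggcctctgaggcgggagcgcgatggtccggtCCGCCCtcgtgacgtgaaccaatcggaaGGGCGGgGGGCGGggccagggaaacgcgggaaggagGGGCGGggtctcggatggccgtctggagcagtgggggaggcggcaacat
The Ccne1 window holds 4 GC boxes and no E box or E2F motif, and the Cdk4 window 3 GC boxes and 4 E boxes. The Cdk2 window holds 6 GC boxes and 1 E2F motif, at position -140 from the gene start. Of all 32851 windows, 35.7% hold a GC box, 7.15% an E box and 2.26% an E2F motif. These matches describe the letters only.

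Between the strains, 0 of the 8 genes were called at any stage, M19 against 129. At E13.5 the differences ran from -0.21 for Cdk6 to 0.18 for Ccnd1, with an adjusted p of 1 each. At E17.5 they ran from -0.20 for Ccnd1 to 0.14 for Cdk6, again with an adjusted p of 1. With limma, 0 of 8 had an unadjusted p under 0.05 at E13.5 and at E17.5, and 3 of 8 at E15.5. The share of all genes called was 0.033% at E13.5, 0.682% at E15.5 and 0.0934% at E17.5.

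At E15.5 the representatives of the 3 D cyclins had the 3 unadjusted p-values under 0.05, all lower in M19. Ccnd1 averaged 10.05 ± 0.05 in the M19 arrays, against 10.49 ± 0.32 in the 129 arrays (SD, n = 2 each), and differed by -0.44 ± 0.19 (95% interval -0.85 to -0.03; limma adjusted p = 0.602). Ccnd2 averaged 11.95 ± 0.05 in the M19 arrays, against 12.34 ± 0.03 in the 129 arrays (SD, n = 2 each), and differed by -0.39 ± 0.10 (95% interval -0.62 to -0.16; adjusted p = 0.241). Ccnd3 averaged 11.99 ± 0.04 in the M19 arrays, against 12.26 ± 0.01 in the 129 arrays (SD, n = 2 each), and differed by -0.26 ± 0.11 (adjusted p = 0.608). In the representative of each of these genes both M19 arrays lay below both 129 arrays. The other probe sets of Ccnd3 did not go this way, with 1444323_at at 0.11 ± 0.11 and 1438805_at at 0.03 ± 0.16, neither called.

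The second probe set of Ccnd1 was called at E15.5, at -0.66 ± 0.12 (adjusted p = 0.043), where 0.573% of all probe sets were called, and the third gave -0.25 ± 0.14 (adjusted p = 0.77). Ccnd2 had an adjusted p of 0.031 with a trended and robust variance model and of 0.142 to 0.761 with 1 array left out, and its 7 probe sets ran from -0.39 to 0.25. In the same comparison the skin list had 6 of 8 markers called lower in M19, skeletal muscle 4 of 7 and cartilage 2 of 5, against 0.533% of all genes called lower. The summed linear signal of the skin list was 2281 to 2346 in M19 at E15.5 and 10565 to 10567 in 129. The muscle sums were 1719 to 1818 in M19 and 4892 to 5199 in 129, the cartilage sums 1484 to 1583 in M19 and 3430 to 3868 in 129, and no marker stood at 0. The part of these tissues in the D cyclin values was not tested.

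Averaged over the 3 stages the strain difference of the 8 genes was not called in any, with 1 of 8 at an unadjusted p under 0.05, against 0.462% of all genes called. The values ran from -0.15 ± 0.11 for Ccnd1 to 0.08 ± 0.11 for Ccne2, and Ccnd2 was at -0.14 ± 0.06. The interaction of strain and stage called 0 of 8, with 1 of 8 at an unadjusted p under 0.05, against 0.203% of all genes. Its adjusted p was 1 for each of the 8.

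**Figure D4:**
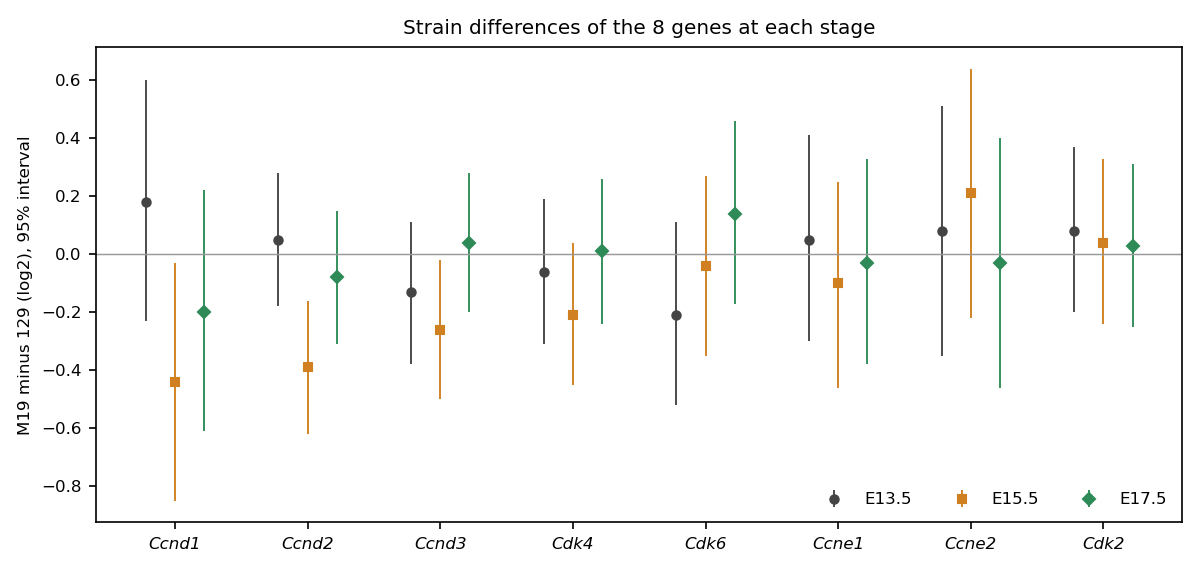
M19 minus 129 on the log2 scale with unadjusted 95% intervals (vertical axis) for the representatives of the 8 genes (horizontal axis) at E13.5, E15.5 and E17.5. The E15.5 intervals of Ccnd1, Ccnd2 and Ccnd3 lie below 0, and none of the 24 differences passes the adjusted test.

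Some genes that act around these kinases were also called over the span, where 27.3% of all genes were called, 16.3% higher and 10.9% lower. In some of the lists the counts lay near these shares, such as 1 of 6 higher among the S and M phase cyclins. Of 17 replication genes known as E2F targets, 10 were lower at E17.5 and none higher, with a median of -0.30. Rrm2, a subunit of ribonucleotide reductase, differed by -0.71 ± 0.09 (limma adjusted p = 2e-04), the replication factor Gins1 by -0.56 ± 0.09 and the DNA polymerase subunit Pola1 by -0.55 ± 0.12. Mcm2 to Mcm5, of the replicative helicase, differed by -0.34, -0.35, -0.29 and -0.26. Pcna, the sliding clamp, differed by -0.24, and the helicase loading factor Cdt1 by -0.32 and the helicase subunit Cdc45 by -0.30.

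In the Rb and E2f list, 2 of 13 genes were higher and 4 lower over the span, against 16.3% and 10.9% of all genes. The median was -0.08. E2f5 differed by -1.03 ± 0.13 (adjusted p = 0.00027), E2f3 by -0.84 ± 0.19, E2f8 by -0.56 ± 0.13 and the E2F partner Tfdp1 by -0.39 ± 0.08. E2f6, a repressor, rose by 0.44 ± 0.10, and E2f1, an activator, by 0.37 ± 0.12 (adjusted p = 0.046).

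Of the 7 Cdk inhibitors, 3 were called higher and 2 lower at E17.5, against 16.3% and 10.9% of all genes. Cdkn2a, which encodes the Cdk4 and Cdk6 inhibitor p16 and, in another reading frame, p19Arf, rose by 1.02 ± 0.11 (adjusted p = 7.3e-05). Its probe set does not tell these transcripts apart here and is dim, with group means of 6.20 to 7.50, below the median of all probe sets. Also higher were Cdkn1b, by 0.79 ± 0.15, and Cdkn2c, by 0.60 ± 0.10. Cdkn1a differed by -1.05 ± 0.07 and Cdkn1c by -1.02 ± 0.08. Cdkn2b and Cdkn2d were not called, at 0.25 ± 0.11 and 0.23 ± 0.08.

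Of the 12 measured genes for Cdk activation and cyclin turnover, 2 were higher and 3 lower over the span, with a median of -0.09. Among all genes 16.3% were called higher and 10.9% lower. Skp2, part of the ligase that degrades the inhibitor p27, differed by -0.51 ± 0.12 (adjusted p = 0.012), the Cdk phosphatase Cdc25a by -0.48 ± 0.14 and Cdk7, of the Cdk-activating kinase, by -0.45 ± 0.09. Fbxo31, of a ligase that degrades cyclin D1 in human cells, rose by 0.47 ± 0.10, and Skp1, shared by several such ligases, by 0.41. The list of S and M phase cyclins also holds Cdk1 and Cdc25 phosphatases. Of its 6 measured genes, 1 was higher (the phosphatase Cdc25b, 0.73 ± 0.12) and 1 lower (the cyclin Ccnb2, -0.46 ± 0.09).

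**Figure D5:**
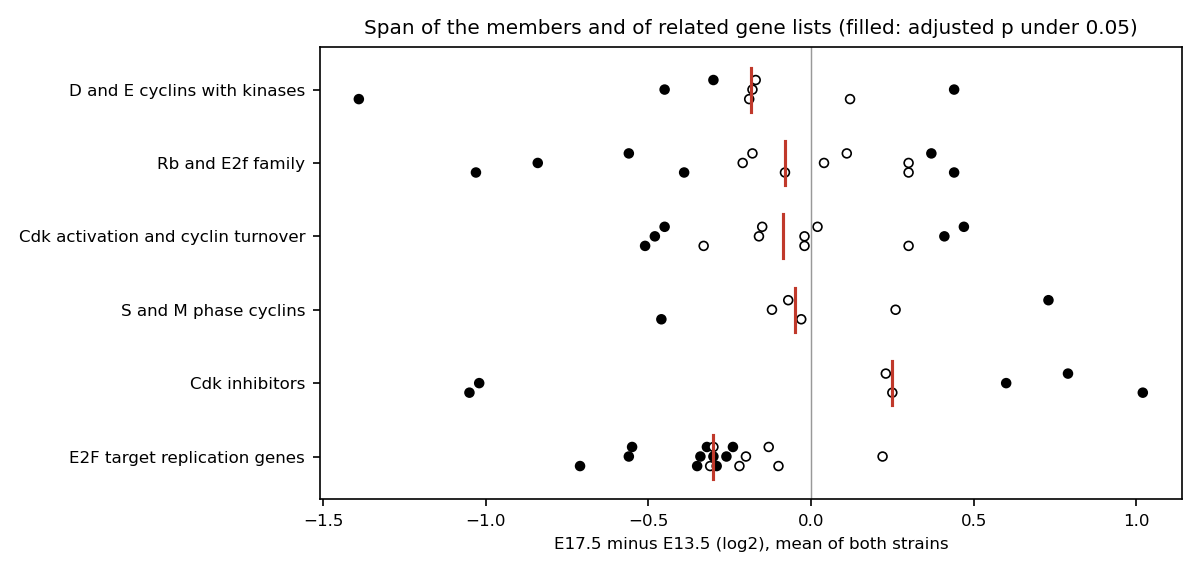
Difference between E17.5 and E13.5 on the log2 scale, mean of both strains (horizontal axis), for each gene of the 8 cyclins and kinases and of the 5 related lists (rows); filled points have an adjusted p under 0.05 and red bars are list medians. The replication genes lie mostly below 0, with a median of -0.30, and the Cdk inhibitors fall on both sides.

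Several marker lists changed over the same stages, while 16.3% of all genes were called higher over the span and 10.9% lower. The mesonephros and duct list, with 3 of 4 markers measured, was called lower for 2 of 3 over the span, as Ccnd1 was. Its summed linear signal was 2886 to 3116, 1487 to 1624 and 1273 to 1335 at the 3 stages in M19, and 2974 to 3247, 1490 to 1507 and 1134 to 1138 in 129. The red blood cell list, with 5 of 6 measured, had 3 lower (Hbb-y, Hba-x and Hbb-bh1) and 1 higher (Alas2, by 1.55), while Hba-a1 was not called. Its sums were 40737 to 40800, 10001 to 10877 and 2713 to 2788 in M19 and 35607 to 40136, 9561 to 9825 and 2595 to 2802 in 129. Hbb-y, its brightest gene at E13.5, went from 14.52 there to 6.42 at E17.5 in M19.

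The coelomic surface list, with 4 of 4 measured, had 3 called lower over the span, all 3 of them already in the early step. Among the lists called higher over the span were fetal Leydig cells with 4 of 4 measured, peritubular muscle with 3 of 4 and interstitial mesenchyme with 4 of 5.

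The endothelial list, with 5 of 5 measured, had 2 called lower in the early step (Pecam1 and Kdr), against 4.52% of all genes. In the late step 1 was called higher (Cdh5), against 4.46% of all genes. Cdh5 and Tek did not follow the sums of the list in the early step, at 0.07 ± 0.09 and 0.02 ± 0.13. The sums of the endothelial list were 5662 to 5805, 4306 to 4563 and 5343 to 6034 in M19 and 5479 to 6000, 3927 to 4430 and 6142 to 6212 in 129. The germ cell list, with 8 of 10 measured, had its highest sums at E15.5, at 30519 to 32177 in M19 and 25261 to 28461 in 129, against 14983 to 21185 in M19 and 16780 to 20674 in 129 over the other stages. Over the span 5 of these 8 were called higher and 3 lower (Dppa3, Pou5f1 and Dazl). In 129 Dazl, Dppa3 and Pou5f1 had their highest means at E13.5, Pou5f1 at 10.72 against 10.71 at E15.5. In M19 Dppa3 did too, at 12.30 against 12.27 at E15.5. The Sertoli list rose in 7 of 9 markers over the span. No marker of these lists stood at 0, and their part in the changes of the cyclins and kinases was not tested.

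The genes whose representatives were most like Ccnd1 over the 12 arrays, among 12077 genes above the median signal, were Foxp2 (r = 0.982), Hoxa9 (0.981), Arhgap28 (0.979), Col26a1 (0.974) and Tnfaip8 (0.974). Hoxa9, a posterior homeobox gene, had a span difference of -3.01, against -1.39 for Ccnd1. For Ccnd2 they were Serping1 (0.956), App (0.935), Penk (0.932), Atp6v0a4 (0.925) and Clec14a (0.925). These are correlations over arrays that share stage and strain, given as a description. Among the 8 genes themselves, Ccnd1 had an r of 0.90 with Ccne1 and 0.85 with Cdk4, and Ccnd2 one of 0.73 with Ccnd3 and -0.34 with Ccnd1.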

How the data were processed

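Total RNA of 12 samples was hybridised to Affymetrix mouse arrays, per the labels. The deposited values are 1 number per probe set and array, and their range fits a log2 scale, which is assumed; the authors' summary, normalization and log base are not given in the sources used here. The file holds 45101 probe sets, of which 64 controls were left out. GEO's platform annotation pairs 34945 of the remaining 45037 with 1 gene, 932 with several and 9160 with none. Names were updated through RefSeq (GRCm38.p6).

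A linear model with 6 group means was fitted to all 12 arrays with limma 3.58.1 in R 4.3.3, without a replicate block, with eBayes (6 residual and 4.82 prior degrees of freedom). Tests are two-sided, and Benjamini-Hochberg adjustment runs over all 45037 probe sets. A strain difference is M19 minus 129 and a stage difference the later minus the earlier, each with the model's SE, and intervals are unadjusted 95% t intervals. The background shares count the 18193 gene representatives, or all 45037 probe sets where they are given as shares of all probe sets. The procedure was tested on simulated data. Tables were made with pandas 2.3.3 under Python 3.11.15 and plots with matplotlib 3.10.9. Precision is limited by the number of arrays.

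The 8 genes and all lists were chosen with earlier results of these data known. Named are the 8 genes, members of the fixed lists, and the 5 genes with the highest r over the arrays for the 2 genes with the largest range of group means. Alternatives were quantile normalization, median centring, a filter on dim probe sets, trended and robust eBayes, only the compared groups, a replicate block, averaging a gene's probe sets, the second brightest probe set, each array left out, and both 129 arrays of E15.5 left out.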

Additional observations from a re-analysis of the deposited data

How the results depend on the processing

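Of the 88 pairs of gene and comparison with a direction, 10 were called. None of these 10 changed sign under those of the 21 alternatives that could be fitted for it. Many alternatives could not turn a sign, since a new variance model, the dim filter or an array left out elsewhere keeps the difference as it was. Among the other pairs 43 changed sign at least once, and none of these exceeded 0.31 in size. Of the 8 genes, the number called over the span was 4, with 4 to 5 under the other alternatives and 2 to 4 with 1 array left out. It was 1 in the early step of both strains, with 3 under quantile normalization and with the mean of all probe sets, 2 with dim probe sets left out and with trended and robust eBayes, 4 in the second brightest probe set, and 1 to 2 with 1 array left out. It was 1 in the late step of both strains, with 2 under quantile normalization, median centring, the dim filter, trended and robust eBayes, the replicate block and the mean of all probe sets, 3 in the second brightest probe set, and 1 to 2 with 1 array left out. In the early step it was 2 in M19, with 3 on the compared groups alone and with the mean of all probe sets, 1 in the second brightest probe set and 1 to 2 with 1 array left out, and 0 in 129, with 2 for the mean of all probe sets and 1 in the second brightest. In the late step of 129 it was 1, with 0 under median centring, the replicate block and the fit on the compared groups, 2 with the mean of all probe sets and in the second brightest, and 0 to 1 with 1 array left out. For the strain difference at E15.5 it was 0, with 1 under trended and robust eBayes and in the second brightest probe set. The counts of the other comparisons stayed within 1.5 times. The causes of these moves were not tested. Replicate numbers are shared between groups, but the labels do not pair them, and same-numbered arrays correlated above 0.1 in 6 of 15 pairs of groups (-0.373 to 0.539). The replicate block changed the call of Ccnd2 in the late step of 129 (adjusted p = 0.053) and of Ccnd1 in the late step of both strains (0.039), and no other call of the 8 genes. The fit on the compared groups could not be made for comparisons that use all 6 groups.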

Other observations

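Among the genes around the cyclins, Fbxw7 and Tfdp2 differed at E15.5 from both other stages, averaged over both strains. They were called in both steps in opposite directions, and the share of all genes with such calls was not counted. Of all genes 14.3% were called in the early step over both strains and 9.04% in the late step. Fbxw7, of the ligase that degrades cyclin E, rose by 0.50 ± 0.10 in the early step over both strains (limma adjusted p = 0.009) and fell by 0.52 ± 0.10 in the late step (adjusted p = 0.013). Tfdp2, a partner of E2F factors, rose by 0.49 ± 0.10 (adjusted p = 0.0066) and fell by 0.38 ± 0.10 (adjusted p = 0.04). The 129 arrays of E15.5 were higher in some skin and muscle markers, and the germ cell sums were highest at E15.5 in both strains. The part of these tissues in both genes was not tested. The early step of Tfdp2 within M19 was 0.72 ± 0.14 and was called (adjusted p = 0.0097). Its late step there was -0.56 ± 0.14 and was not called (adjusted p = 0.062). Neither step of Tfdp2 was called within 129, at 0.27 ± 0.14 (adjusted p = 0.398) and -0.20 ± 0.14 (adjusted p = 0.601). Within M19 the early step of Fbxw7 was 0.55 ± 0.15 and was not called (adjusted p = 0.058), while its late step was, at -0.68 ± 0.15 (adjusted p = 0.039). Within 129 neither was called, at 0.46 ± 0.15 (adjusted p = 0.126) and -0.36 ± 0.15 (adjusted p = 0.311).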
